A study of Mus musculus with 82 samples.

Results

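The enzymes and regulators of cholesterol and lipid synthesis were followed through sorted retinal ganglion cells (RGCs, the output neurons of the retina) and through lysates of the superior colliculus (SC), a midbrain target of their axons. The 28 genes were taken by mouse symbol from the 43629 gene identifiers of each raw count table, and all 28 were found in both tables. By role, 8 belong to the mevalonate branch, 11 lead from squalene to cholesterol, 4 are regulators, 3 carry sterols between membranes or out of the cell and 2 make fatty acids. Each table held 41 libraries in 4 groups, named "SHAM" (10 libraries), "OHT" (11), "SHAM + DREADD" (10) and "OHT + DREADD" (10). The series record gives an age of about 10 weeks, although the schedule of injections in the methods places collection later than that. The mice carried Vglut2-ires-Cre with Thy1-STOP-YFP, in which Cre driven from the glutamate transporter locus switches on YFP so that RGCs can be sorted; the labels give the genotype as WT. In the OHT groups (ocular hypertension), magnetic microbeads in the anterior chamber blocked the outflow of aqueous humour for 5 weeks, whereas SHAM eyes received saline. In the DREADD groups the SC received an AAV2/7 vector with hM3D(Gq)-mCherry, a receptor that excites the cell when clozapine-N-oxide (CNO) binds it, under the CaMKIIα promoter; the other groups received a null vector with mCherry alone. All 4 groups received CNO, so that none shows these genes without the drug. A sample was the RGCs of 1 retina or the lysate of 1 SC.

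Cholesterol is built from acetyl-CoA. The mevalonate branch joins these units into isoprenoids, squalene synthase commits them to sterols, and a series of enzymes of the endoplasmic reticulum turns lanosterol into cholesterol. When sterols are scarce, SCAP carries the SREBP transcription factors to the Golgi, where they are cut and released to activate most of these genes; when sterols are plentiful, INSIG proteins hold the complex back, and LXR receptors activate the exporters Abca1 and Abcg1. The brain and retina are known to make much of their own cholesterol, in the brain largely in glia. In bulk samples, fewer cells of a type and less RNA per cell cannot be told apart.

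SREBP proteins act at sterol regulatory elements, usually with the factor NF-Y at a nearby CCAAT box, so the promoters of members that carry the results below are shown with these letters in capitals. Each runs from 250 bases before the transcription start to 50 bases after it, taken from RefSeq on GRCm38.p6 and printed on the gene's strand. Capitals mark TCACNCCAC (a sterol regulatory element), CCAAT and CACGTG (an E-box), searched on both strands; these motifs cannot contain one another. The windows are chr13:119690101-119690400 on the plus strand (Hmgcs1), chr13:8885356-8885655 on the plus strand (Idi1), chr5:28071162-28071461 on the plus strand (Insig1), chr8:64733529-64733828 on the minus strand (Msmo1), chr17:12960676-12960975 on the minus strand (Acat2) and chr4:53159846-53160145 on the minus strand (Abca1).
Hmgcs1: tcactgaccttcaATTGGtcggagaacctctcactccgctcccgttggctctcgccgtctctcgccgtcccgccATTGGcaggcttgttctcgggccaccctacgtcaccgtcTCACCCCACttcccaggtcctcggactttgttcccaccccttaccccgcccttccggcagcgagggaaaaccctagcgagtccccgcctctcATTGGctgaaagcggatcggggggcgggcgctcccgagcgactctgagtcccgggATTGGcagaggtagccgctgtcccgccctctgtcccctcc
Idi1: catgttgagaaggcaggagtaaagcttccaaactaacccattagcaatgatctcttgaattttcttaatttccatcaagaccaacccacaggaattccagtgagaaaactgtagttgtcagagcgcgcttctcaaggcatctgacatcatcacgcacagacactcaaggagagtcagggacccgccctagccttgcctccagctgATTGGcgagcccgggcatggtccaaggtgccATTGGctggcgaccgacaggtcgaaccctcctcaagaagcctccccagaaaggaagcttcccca
Insig1: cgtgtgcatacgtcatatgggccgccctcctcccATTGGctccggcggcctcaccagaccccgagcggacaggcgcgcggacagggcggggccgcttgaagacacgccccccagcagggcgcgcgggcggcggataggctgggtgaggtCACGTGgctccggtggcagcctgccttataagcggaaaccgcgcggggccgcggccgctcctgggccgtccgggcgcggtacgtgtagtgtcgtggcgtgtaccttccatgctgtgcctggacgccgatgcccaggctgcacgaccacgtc
Msmo1: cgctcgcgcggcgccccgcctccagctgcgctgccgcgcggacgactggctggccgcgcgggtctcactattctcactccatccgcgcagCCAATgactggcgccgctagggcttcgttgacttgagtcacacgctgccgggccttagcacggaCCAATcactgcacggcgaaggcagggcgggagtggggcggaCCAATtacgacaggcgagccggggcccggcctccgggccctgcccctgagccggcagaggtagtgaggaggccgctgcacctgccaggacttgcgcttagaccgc
Acat2: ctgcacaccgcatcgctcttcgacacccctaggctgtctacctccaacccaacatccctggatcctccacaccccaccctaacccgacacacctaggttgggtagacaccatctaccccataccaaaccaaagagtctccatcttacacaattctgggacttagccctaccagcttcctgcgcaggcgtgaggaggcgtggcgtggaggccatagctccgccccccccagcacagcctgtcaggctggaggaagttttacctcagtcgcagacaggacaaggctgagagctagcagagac
Abca1: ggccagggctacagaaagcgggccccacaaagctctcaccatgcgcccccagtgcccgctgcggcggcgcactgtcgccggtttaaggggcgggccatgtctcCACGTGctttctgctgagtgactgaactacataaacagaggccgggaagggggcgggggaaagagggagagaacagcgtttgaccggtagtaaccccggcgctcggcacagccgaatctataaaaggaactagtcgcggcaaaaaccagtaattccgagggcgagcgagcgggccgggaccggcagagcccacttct

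The Hmgcs1 window held 1 sterol regulatory element and 4 CCAAT boxes, that of Idi1 2 CCAAT boxes, that of Msmo1 3, and that of Insig1 1 CCAAT box and 1 E-box. No such letters stood in the Acat2 window, and that of Abca1 held 1 E-box alone. Of the 28 members, 22 had a window here (not Fdps, Fdft1, Sqle, Stard4, Abcg1 or Scd2), some with more than 1 start, giving 28 windows. Windows on chromosome 18, where Stard4 lies, were left out of the members but not out of all promoters. CCAAT was found in 71.4% of these windows and in 37.4% of all 32851 promoters of the same length. The E-box was found in 25.0% of the windows against 7.15% of all promoters. The sterol regulatory element was found in 3.57% of the windows, that of Hmgcs1 alone, against 1.24% of all promoters. A match of letters is a description and not a bound site.

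Total counts ranged from 3534776 to 6889040 per RGC library (median 5107338) and from 1766207 to 4239835 per SC library (median 2926193). The 9 rod photoreceptor markers summed to between 11594 and 110952 CPM in the RGC libraries (CPM, counts scaled by the TMM-normalised library size), whereas the 10 RGC markers, all of them detected, summed to between 446 and 1822 CPM and were below the rod sum in every library. Over 60000 CPM of rod markers stood in 2 "SHAM", 1 "SHAM + DREADD" and 2 "OHT + DREADD" libraries. Read from Xist against Y-linked genes, all 10 "SHAM + DREADD" libraries of each tissue came from females, as did 5 of the 10 "OHT + DREADD" libraries. Without stimulation, females gave 2 of the 10 libraries after sham and 2 of the 11 after hypertension, so that sex and group overlap. In fits with sex as a covariate, a comparison with "SHAM + DREADD" therefore rests on the female libraries of the other group. In the SC, the activity genes Fos and Fosb were higher in "OHT + DREADD" than in "OHT" by 1.91 and 2.37 on the log2 scale (edgeR adjusted p = 3.9e-05 and 1.8e-05). In "SHAM + DREADD" against "SHAM" they were higher by 1.62 and 2.22 (edgeR adjusted p = 1.6e-07 and 1.9e-05). This checks the labels of the stimulated SC groups and not those of the RGC libraries. In the first comparison the edgeR adjusted p was 0.031 for Egr1, 0.0087 for Nr4a1, 0.598 for Npas4 and 0.674 for Arc. SC "SHAM" replicate 1 has a title and a treatment field that differ and was kept by its title.

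In the RGC libraries, where reads cover whole transcripts, levels between genes were compared per kilobase of exon. Fdft1, squalene synthase, had the highest level at 58.0 CPM per kb (mean of 41 libraries), followed by Pmvk, a mevalonate branch kinase (57.3), Abcg1, a sterol exporter (51.6), and Hmgcs1, which makes HMG-CoA (38.2). Scd2, a fatty acid desaturase, stood at 32.9, Fdps, which makes farnesyl diphosphate, at 26.8, and Insig1, the sterol-sensing brake, at 26.2 CPM per kb. The lowest level was that of Abca1, the other exporter, at 0.489 CPM per kb. Mvk (6.97), Abca1 (5.07), Idi1 (4.89), Tm7sf2 (4.38) and Hsd17b7 (4.24) had a mean under 10 CPM, and every other member was above it.

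In the SC, where 3′ tags give 1 read per transcript end, CPM needs no length. Scd2 led at 683 CPM, then Hmgcs1 at 325, Msmo1, the sterol methyl oxidase, at 140, and Cyp51, the lanosterol demethylase, at 92.8 CPM. Tm7sf2, a sterol reductase, was the single member under 10 CPM, at 8.76. The members varied far less between SC than between RGC libraries. The coefficient of variation over 41 libraries was 13.5% for Hmgcs1 in the SC and 37.5% in the RGC libraries, and 24.2% and 64.2% for Insig1. Gene overlaps could move reads between some members and neighbours, since the strand setting of the counting is not given in the sources used here: Fdft1 with Ctsb, Cyp51 with Akap9, Ggps1 with Arid4b and Srebf1 with Rai1 on the opposite strand, and Fdps with Gm43738 and Tm7sf2 with Vps51 on the same strand.

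By group, Hmgcs1 ranged in the RGC libraries from 97.5 to 309 CPM in "SHAM" (median 224), from 45.5 to 255 in "OHT" (183), from 45.8 to 251 in "SHAM + DREADD" (192) and from 51.7 to 244 in "OHT + DREADD" (154). Sqle, the squalene epoxidase, ranged from 53.9 to 148 (107), from 29.8 to 127 (81.9), from 65.4 to 164 (100.2) and from 27.7 to 133 (61.0) in the same order. Both genes had their lowest median in "OHT + DREADD", and the 4 groups overlapped. Srebf2, which encodes the SREBP activator of most of these genes, had medians of 40.9, 34.2, 50.7 and 31.7 CPM within a range of 14.5 to 63.5. Insig1 had medians of 76.8, 68.3, 95.3 and 54.2 CPM, and single libraries reached 328 in "SHAM + DREADD" and 152 in both OHT groups. Abca1 lay between 0 and 14.3 CPM, with medians of 4.76, 5.40, 4.79 and 2.71.

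**Figure D1:**
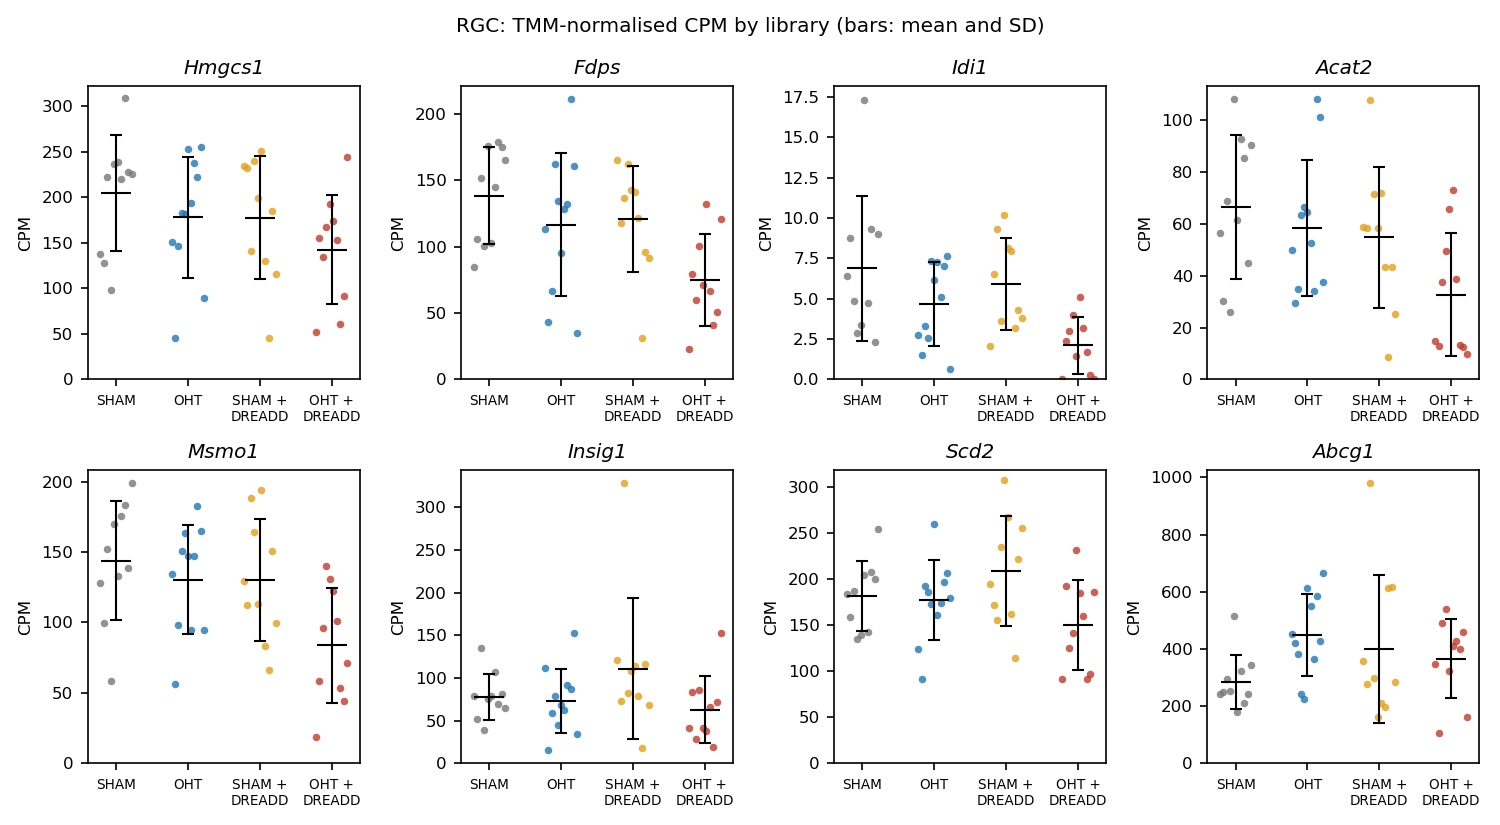
TMM-normalised CPM by library for members in RGC samples, with 1 point per library, groups along the x axis and bars for the mean and SD. For Msmo1 all 10 "OHT + DREADD" libraries lay below the "OHT" median of 147 CPM.

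Ocular hypertension was compared with sham in the RGC samples. Abcg1, which exports sterols, had the lowest p of the members and was higher in "OHT", at 449 ± 145 CPM (SD, n = 11) against 286 ± 94.3 (SD, n = 10). In "SHAM" it ranged from 180.4 to 515 CPM with a median of 251, and in "OHT" from 225 to 666 with a median of 427. The groups overlapped, although 9 of 11 "OHT" libraries lay above the "SHAM" median. The log2 difference was 0.64 (SE 0.18), a fold of 1.56, with a p of 0.00082 and an edgeR adjusted p of 0.184. The adjusted p was 0.0638 without "SHAM" replicate 5, the library at 515 CPM, and 0.0553 with no filter on low counts. Over all 33 alternatives run for Abcg1 the edgeR, DESeq2 or limma adjusted p lay between 0.0553 and 1.0 and the log2 difference between 0.56 and 0.77, short of the fold a call needs.

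Both of the following were needed for a call in edgeR's quasi-likelihood test, namely an adjusted p no higher than 0.1 and a log2 difference no smaller than 1.3 in the RGC samples or 0.5 in the SC. None of the 28 members was called in "OHT" against "SHAM", where 0.0172% of 17491 genes were called higher and 0.0515% lower. DESeq2 and limma-voom also called 0 members, here and in the other comparisons of 2 groups, and DESeq2 called 0 in the interactions. At an unadjusted p under 0.05, 1 member was higher and 0 were lower, where 2.39% of all genes were higher and 3.38% lower. Of the members 20 had a value below 0 and 8 above, with a median log2 difference of -0.13, against -0.02 over all genes. The 11 genes from squalene to cholesterol had a median of -0.21 and the 8 of the mevalonate branch one of -0.12. Sqle stood at -0.37 (SE 0.20), Hmgcs1 at -0.20 (SE 0.21), Insig1 at -0.10 (SE 0.24), Srebf2 at -0.08 (SE 0.22) and Abca1 at 0.28 (SE 0.56), none with an unadjusted p under 0.05. Without "SHAM" replicates 1 to 4, which hold reads of more genes than the other "SHAM" libraries, 4 members were lower at that p against 2.22% of all genes, and without the libraries of over 60000 CPM of rod markers 4 were, against 2.51%.

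Stimulation under ocular hypertension was assessed by "OHT + DREADD" against "OHT" in the RGC samples. The members with an unadjusted p under 0.05 were Acat2, a thiolase that feeds the mevalonate branch, Msmo1 and Fdps, each lower in "OHT + DREADD". Acat2 ranged from 29.3 to 108 CPM in "OHT" with a median of 52.5, and from 9.62 to 73.1 in "OHT + DREADD" with a median of 26.1. Of the 10 "OHT + DREADD" libraries, 5 lay below every "OHT" library. These were replicates 1, 2, 8, 9 and 10, at 9.62 to 14.8 CPM. Replicates 3 to 7 lay between 37.4 and 73.1 CPM, inside the "OHT" range, so the group was split and no library lay near its median. Its log2 difference was -0.83 (SE 0.32, p = 0.0122 and edgeR adjusted p = 0.326), a value that ran from -1.33 to -0.63 over its 32 alternatives. Acat2 has a close relative, Acat3, and reads that mapped to several places were discarded.

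Msmo1 ranged from 56.3 to 182 CPM in "OHT" and from 18.8 to 140 in "OHT + DREADD", with medians of 147 and 83.7. All 10 stimulated libraries lay below the "OHT" median, and the log2 difference was -0.64 (SE 0.24, p = 0.0134, edgeR adjusted p = 0.343). Fdps ranged from 35.0 to 212 CPM against 23.1 to 132, with medians of 128 and 68.8, and 9 of 10 stimulated libraries lay below the "OHT" median. Its log2 difference was -0.64 (SE 0.27, p = 0.0220, edgeR adjusted p = 0.434). Without the libraries of over 60000 CPM of rod markers, Fdps stood at -0.51 (p = 0.0676, edgeR adjusted p = 0.727), and without "OHT" replicate 9 at -0.52 (p = 0.0586). Both pairs of groups overlapped. These promoters were not alike, since the Msmo1 window held 3 CCAAT boxes and that of Acat2 none.

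None of the 28 members was called in this comparison, where 0.0758% of 17160 genes were called higher and 0.0117% lower. At an unadjusted p under 0.05, 3 members were lower and 0 higher, against 3.45% of all genes lower and 5.02% higher. The members had a median log2 difference of -0.26 with 22 of 28 below 0, and all genes one of 0.0043 with 49.7% below 0. Medians were -0.34 in the mevalonate branch, -0.33 from squalene to cholesterol, -0.29 in transport and efflux and -0.14 for the fatty acid genes, and the 4 regulators stood at -0.03. Hmgcs1 stood at -0.32 (SE 0.25), Abca1 at -0.73 (SE 0.55), Insig1 at -0.21 (SE 0.30), Sqle at -0.14 (SE 0.24) and Srebf2 at 0.04 (SE 0.23). With sex as a covariate, Acat2 was at -1.33 and was called, at an edgeR adjusted p of 0.0883. Its adjusted p was also under 0.1, short of the fold, with no filter on low counts (0.0726) and with a replicate block (0.0670), and over all its alternatives it reached 0.85.

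The effect of ocular hypertension under stimulation, "OHT + DREADD" against "SHAM + DREADD", had the most members with a value below 0, at 24 of 28. The members' median deviation from their log2 means over all libraries was -0.87, -0.53, -0.47 and -0.67 in "OHT + DREADD" replicates 1, 2, 8 and 9. In the other replicates of that group it lay between -0.06 and 0.19. In "SHAM + DREADD" it was lowest in replicate 8, at -0.21. Members were partly related to one another, as given below, so the 24 values are not independent. Fdps (-0.70, SE 0.26), Insig1 (-0.82, SE 0.34), Msmo1 (-0.64, SE 0.27), Scd2 (-0.47, SE 0.21), Idi1 (-1.48, SE 0.66) and Acat2 (-0.74, SE 0.36) had an unadjusted p under 0.05, and their edgeR adjusted p ran from 0.399 to 0.688. Fdps ranged from 31.3 to 165 CPM in "SHAM + DREADD" (median 129) and from 23.1 to 132 in "OHT + DREADD" (median 68.8). Scd2 ranged from 115 to 308 CPM (median 209) and from 91.2 to 232 (median 151). The groups overlapped for every one of these genes.

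Idi1, the isomerase that supplies the activated isoprene unit, was low in all libraries, from 2.05 to 10.2 CPM in "SHAM + DREADD" and from 0 to 5.09 in "OHT + DREADD". All 10 "OHT + DREADD" libraries lay below the "SHAM + DREADD" median of 5.42 CPM, and 2 held no read. Msmo1 ranged from 66.1 to 194 CPM (median 121) against 18.8 to 140 (median 83.7), and Acat2 from 8.62 to 108 (median 58.5) against 9.62 to 73.1 (median 26.1). Insig1 ranged from 18.3 to 328 against 19.4 to 152 CPM; without "SHAM + DREADD" replicate 3, the library at 328, its difference was -0.46 with a p of 0.137 (edgeR adjusted p = 0.853).

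None of the 28 members was called, where 0.0351% of 17088 genes were called higher and 0.00585% lower. At an unadjusted p under 0.05, 6 members were lower and 0 higher, against 3.18% of all genes lower and 4.05% higher. The median over the members was -0.43 against -0.02 over all genes, and 51.6% of all genes were below 0. It was -0.51 in the mevalonate branch, -0.45 from squalene to cholesterol, -0.46 for the fatty acid genes, -0.33 in transport and efflux and -0.12 for the regulators. Sqle stood at -0.45 (SE 0.25), Srebf2 at -0.36 (SE 0.25), Hmgcs1 at -0.32 (SE 0.26) and Abca1 at -0.66 (SE 0.52). With sex as a covariate 1 member was lower at an unadjusted p under 0.05 (4.01% of all genes), Insig1 at -1.15, and the members' median was -0.25. Acat2 then stood at -0.19, Msmo1 at -0.24 and Idi1 at -0.94. The group difference in that fit rests on the 5 female "OHT + DREADD" libraries, since all of "SHAM + DREADD" came from females. With the summed rod markers as a covariate 0 members were lower at that p (3.39% of all genes), and the median was -0.32. Acat2 then stood at -0.30, Insig1 at -0.40 and Fdps at -0.40. Without the libraries of over 60000 CPM of rod markers 5 were lower at that p (3.32% of all genes), with a median of -0.39. With the summed amacrine markers as a covariate 5 were lower (3.39% of all genes), with a median of -0.36. Without "SHAM + DREADD" replicate 5, 3 members were lower at that p, against 2.84% of all genes.

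Several of the named members in the RGC samples were related to markers of other cell types. Of 14 relations tested (7 members, each with the rod and the amacrine markers), 10 had an adjusted p under 0.05 for r and 8 for rho. Over 41 libraries, after each group's mean was taken out, Acat2 was related to the rod marker sum with r = -0.54 (permutation p = 0.00157) and rho = -0.45 (permutation p = 0.00569), and Insig1 with r = -0.50 (permutation p = 0.00166) and rho = -0.40 (permutation p = 0.0131). To the 4 amacrine cell markers, Scd2 was related with r = 0.64 (permutation p = 1e-05, the smallest the resamples allow) and rho = 0.60 (permutation p = 1e-04). The adjusted p for r was 0.00581, 0.00581 and 0.00014. Without the 2 libraries farthest from the median of the markers, r was -0.37, -0.48 and 0.57. The rod sum had group medians between 27145 and 31864 CPM and reached 110952 in "OHT + DREADD" replicate 9. How much of the differences this carries was not tested beyond the covariate fits.

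**Figure D2:**
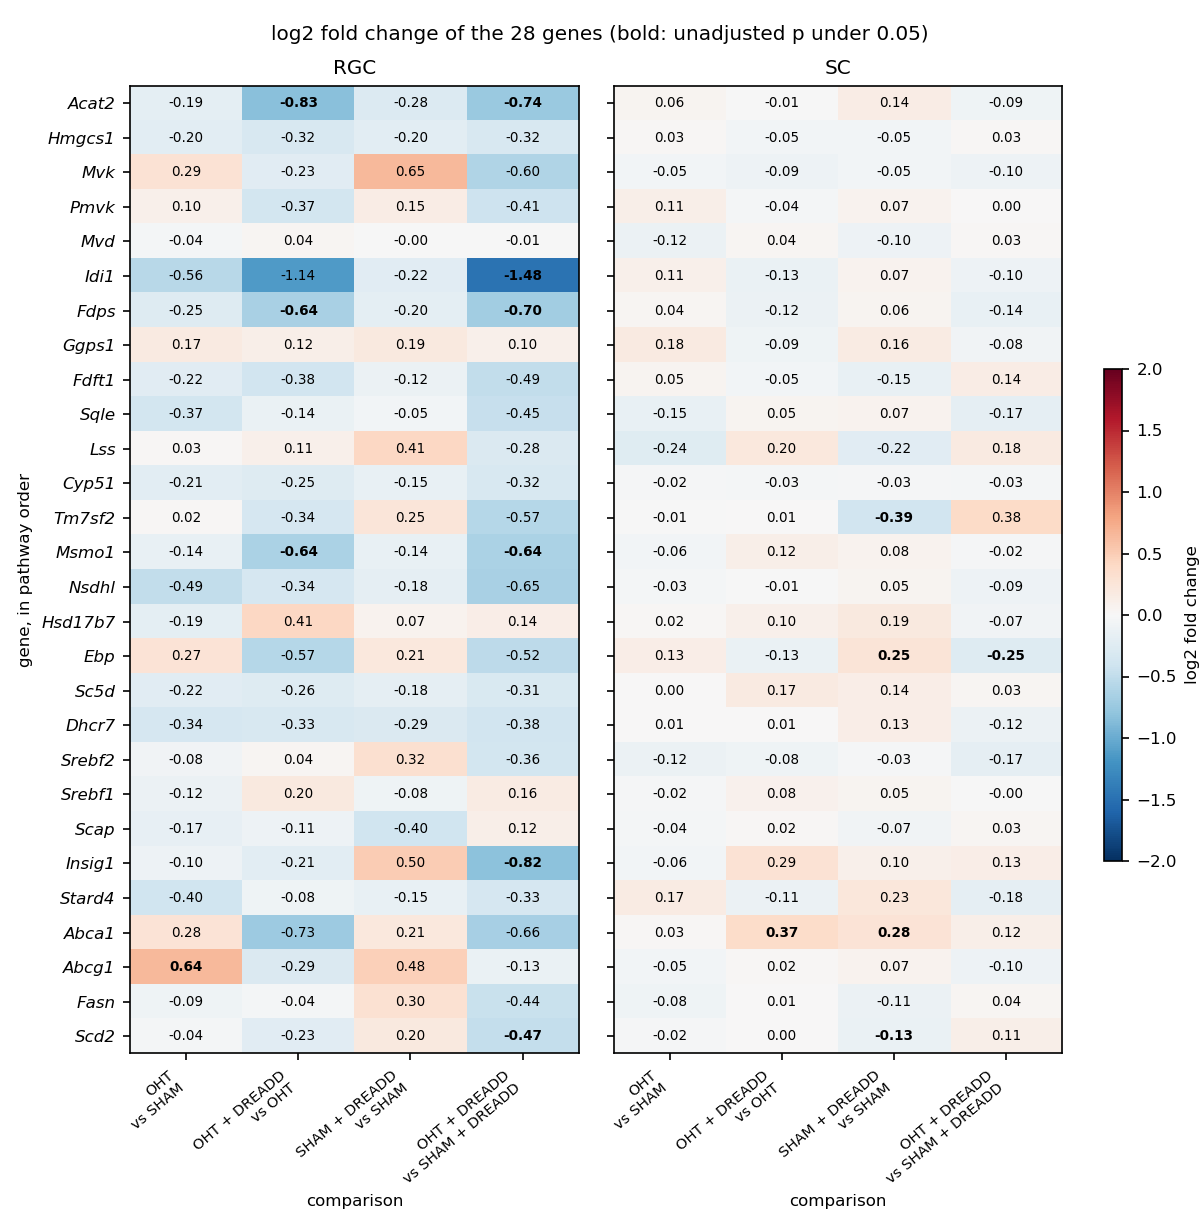
Log2 differences of the 28 members in the 4 comparisons of 2 groups in each tissue, genes down the side in pathway order, comparisons in columns, with colour and printed value for the edgeR estimate. In "OHT + DREADD" against "SHAM + DREADD" of the RGC samples 24 of 28 values are below 0, and SC values lie between -0.39 and 0.38. Bold marks an unadjusted p under 0.05.

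Stimulation without hypertension, "SHAM + DREADD" against "SHAM", left the RGC members centred near 0. The median was -0.03, with 13 members above 0 and 15 below, and 0 members had an unadjusted p under 0.05, where 2.20% of 17439 genes were higher and 2.96% lower at that p. None was called, against 0.0% of all genes called higher and 0.0115% lower. The value of Insig1 was 0.50 (SE 0.28), with Srebf2 at 0.32 (SE 0.24), Hmgcs1 at -0.20 (SE 0.23), Sqle at -0.05 (SE 0.20) and Abca1 at 0.21 (SE 0.54). The sexes differed most between these groups, and with sex as a covariate the median was 0.25, where that of all genes was 0.17. The group difference in that fit rests on the 2 female "SHAM" libraries.

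The interaction term asked whether stimulation acted differently with and without hypertension. None of the members was called, where 1.34% of 19234 genes were called higher and 1.06% lower. Abcg1 was the single member with an unadjusted p under 0.05, at -0.77 (SE 0.35, p = 0.0314, edgeR adjusted p = 0.398), against 4.60% of all genes lower and 5.46% higher at that p. With a replicate block Abcg1 stood at -0.62 (p = 0.0665). Its means were 286 ± 94.3 in "SHAM", 449 ± 145 in "OHT", 399 ± 260 in "SHAM + DREADD" and 366 ± 138 CPM in "OHT + DREADD" (SD, n = 10, 11, 10 and 10), and "SHAM + DREADD" spread from 161 to 982 CPM. The members' median was -0.30 with 23 of 28 below 0, and all genes had 0.01. Insig1 stood at -0.73 (SE 0.44), Abca1 at -0.95 (SE 0.76), Srebf2 at -0.28 (SE 0.34), Hmgcs1 at -0.12 (SE 0.35) and Sqle at -0.09 (SE 0.33). The comparisons above share groups, so their values are not independent of each other.

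In the SC the members differed little between groups. Hmgcs1 had medians of 318, 331, 313 and 293 CPM in the 4 groups, in the order used for the RGC samples, within a range of 246 to 438 over all libraries. Sqle had medians of 38.9, 35.0, 41.6 and 37.8 CPM within 25.6 to 49.9, and Srebf2 medians of 45.9, 40.4, 45.4 and 37.7 within 30.4 to 61.1. Insig1 had medians of 24.5, 24.5, 27.1 and 27.1 CPM, and one library, "OHT + DREADD" replicate 9, reached 54.5. That library also held the highest sum of oligodendrocyte markers, at 9948 CPM, where the group median was 4059. Over 41 libraries Insig1 was related to these markers with r = 0.52 (permutation p = 0.0031) and rho = 0.40 (permutation p = 0.0128), 1 of 10 relations tested in the SC, of which 4 had an adjusted p under 0.05 for r (here 0.00775, and 0.0427 for rho), and with r = 0.31 without the 2 libraries farthest from the median.

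For "OHT" against "SHAM" in the SC, none of the 28 members was called and 0 had an unadjusted p under 0.05, where 0.0193% of 15578 genes were called higher and 0.0% lower, and 2.77% were higher and 2.18% lower at that p. The median was -0.02, with 13 members above 0 and 15 below. Hmgcs1 stood at 0.03 (SE 0.07), Abca1 at 0.03 (SE 0.13), Insig1 at -0.06 (SE 0.12), Srebf2 at -0.12 (SE 0.10) and Sqle at -0.15 (SE 0.11).

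Abca1 had higher medians in both stimulated groups of the SC, without passing the test over all genes. It ranged from 23.9 to 38.4 CPM in "SHAM" (median 33.6), from 23.4 to 50.2 in "OHT" (32.4), from 30.5 to 53.2 in "SHAM + DREADD" (37.4) and from 29.5 to 71.2 in "OHT + DREADD" (39.8). The log2 difference was 0.28 (SE 0.10, p = 0.0088, edgeR adjusted p = 0.381) for "SHAM + DREADD" against "SHAM", and 0.37 (SE 0.15, p = 0.0163, edgeR adjusted p = 0.621) for "OHT + DREADD" against "OHT", where 9 of 10 libraries lay above the "OHT" median. The 71.2 CPM belonged to "OHT + DREADD" replicate 10, which had the highest sum of microglia markers, at 612 CPM. Over 41 libraries Abca1 was related to the microglia sum with r = 0.55 (permutation p = 0.00162, adjusted p = 0.00775) and rho = 0.47 (permutation p = 0.00442), and r was 0.34 without the 2 farthest libraries. With the microglia sum as a covariate the difference in the sham groups was 0.07 (p = 0.494, edgeR adjusted p = 0.897) and that in the OHT groups 0.31 (p = 0.0260, edgeR adjusted p = 0.552). With sex as a covariate the first was 0.51. Over the 29 and 31 alternatives run, the adjusted p lay between 0.191 and 0.897 and between 0.227 and 0.917.

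**Figure D3:**
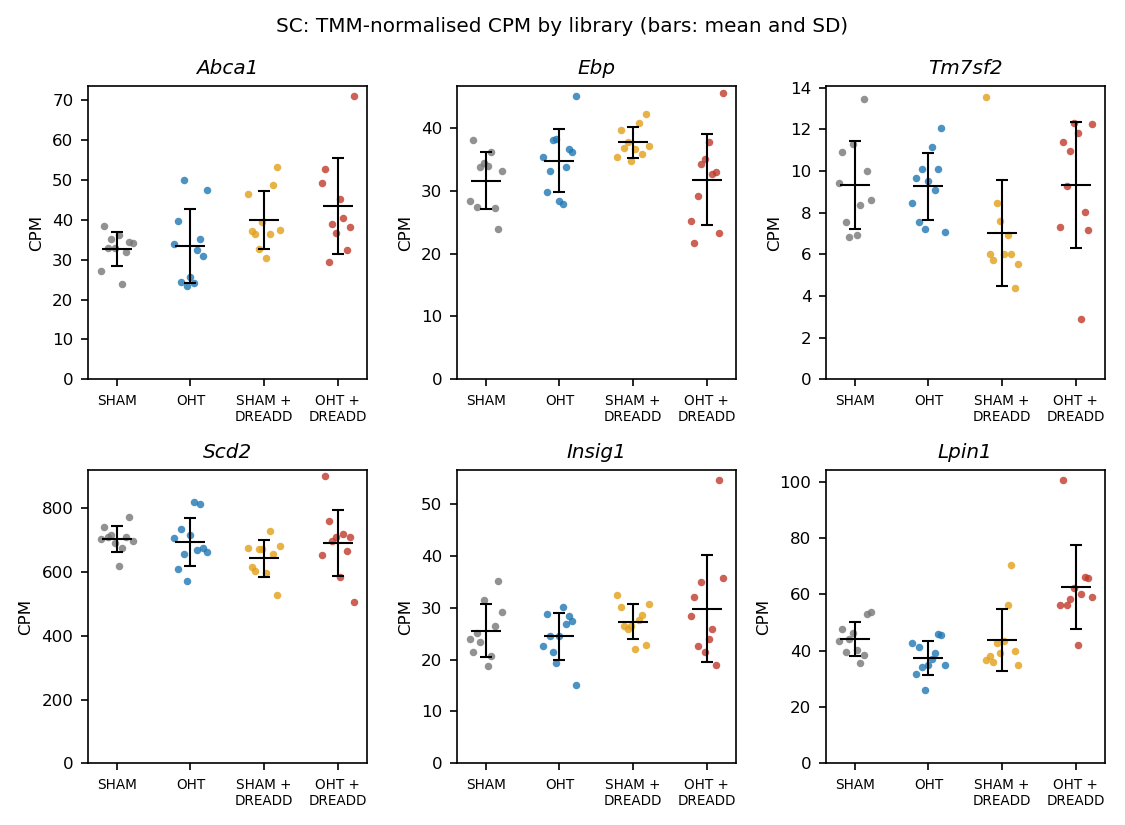
TMM-normalised CPM by library for members and Lpin1 in SC samples, with 1 point per library, groups along the x axis and bars for the mean and SD. Abca1 reached 71.2 CPM and Lpin1 100.4 CPM in single "OHT + DREADD" libraries.

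Ebp, a sterol isomerase encoded on the X chromosome, was between 34.7 and 42.2 CPM in "SHAM + DREADD" and between 23.8 and 38.0 in "SHAM", with all 10 stimulated libraries above the "SHAM" median of 33.4. Its log2 difference was 0.25 (SE 0.09, p = 0.0064, edgeR adjusted p = 0.364), and 0.23 (p = 0.143, edgeR adjusted p = 0.704) with sex as a covariate. Under hypertension it stood lower with stimulation than in "SHAM + DREADD", at -0.25 (SE 0.11, p = 0.0292, edgeR adjusted p = 0.679), and -0.12 with sex as a covariate (p = 0.367). The interaction was -0.39 (SE 0.15, p = 0.0090, edgeR adjusted p = 0.501). Ebp was related to the microglia sum over 41 libraries with r = 0.64 (permutation p = 3e-05, adjusted p = 0.0003) and rho = 0.57 (permutation p = 0.00017), and r was 0.55 without the 2 farthest libraries. With that sum as a covariate, "SHAM + DREADD" against "SHAM" stood at 0.26 (p = 0.0166, edgeR adjusted p = 0.608). With the same covariate, "OHT + DREADD" against "SHAM + DREADD" stood at -0.17 (p = 0.0879, edgeR adjusted p = 0.885).

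The other members at an unadjusted p under 0.05 in "SHAM + DREADD" against "SHAM" were Scd2, at -0.13 (SE 0.06), and Tm7sf2, at -0.39 (SE 0.18). Scd2 ranged from 528 to 729 CPM against 619 to 774, with medians of 664 and 706. Tm7sf2 ranged from 4.40 to 13.6 CPM (median 6.02) against 6.81 to 13.5 (median 9.03), with 6 of 10 stimulated libraries below every "SHAM" library. Their edgeR adjusted p was 0.475 and 0.485. Scd2 stood at -0.11 (p = 0.121) with the microglia markers as a covariate, and Tm7sf2 at -0.61 (p = 0.0457) with sex as a covariate. Leaving out any of 5 libraries took the p of Scd2 above 0.05, and any of 10 did so for Tm7sf2, to at most 0.0707 and 0.0896. Without "SHAM" replicate 1, whose labels differ, 4 members were higher and 2 lower at an unadjusted p under 0.05, against 4.01% and 4.65% of all genes. Reads of Tm7sf2 may be shared with Vps51 on the same strand.

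None of the members was called in "SHAM + DREADD" against "SHAM" (0.0518% of 15433 genes called higher and 0.0324% lower), in "OHT + DREADD" against "OHT" (0.0828% and 0.0127% of 15694), in "OHT + DREADD" against "SHAM + DREADD" (0.0192% and 0.0% of 15592) or in the interaction (0.0247% and 0.0186% of 16169). At an unadjusted p under 0.05, 2 members were higher and 2 lower in the first, where 4.62% and 4.92% of all genes were. In the second, 1 was higher, against 4.31% of all genes, and 0 lower, against 3.08%. In the third, 0 were higher, against 4.46%, and 1 lower, against 2.67%. In the interaction 1 was higher and 1 lower, against 3.97% and 3.97%. The higher one was Lss, the enzyme that closes the sterol rings, at 0.41 (SE 0.18, edgeR adjusted p = 0.569), with medians of 18.4, 15.3, 16.3 and 18.2 CPM over the 4 groups in the order given above. Medians over the members were 0.06, 0.0051, -0.03 and -0.03. The first turned to -0.0558 with the microglia markers as a covariate.

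In the same 4 SC comparisons Hmgcs1 stood at -0.05 (SE 0.08), -0.05 (SE 0.09), 0.03 (SE 0.10) and -0.01 (SE 0.12). Sqle stood at 0.07 (SE 0.09), 0.05 (SE 0.12), -0.17 (SE 0.10) and -0.03 (SE 0.15), and Srebf2 at -0.03 (SE 0.10), -0.08 (SE 0.12), -0.17 (SE 0.11) and -0.06 (SE 0.15). Insig1 stood at 0.10 (SE 0.11), 0.29 (SE 0.15), 0.13 (SE 0.15) and 0.18 (SE 0.19). None of these genes had an unadjusted p under 0.05. Abca1, beside its values given above, stood at 0.12 (SE 0.13) in "OHT + DREADD" against "SHAM + DREADD" and at 0.08 (SE 0.19) in the interaction, also short of that p.

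A list of 36 further genes of these pathways was counted beside the members. In the SC, Lpin1, a phosphatidate phosphatase of triglyceride synthesis, was called higher in "OHT + DREADD" than in "OHT" (log2 difference 0.75, SE 0.12, edgeR adjusted p = 0.0030). Of the 35 tested only Lpin1 was called, where 0.0828% of all genes were called higher and 0.0127% lower. It ranged from 26.1 to 45.9 CPM in "OHT" and from 41.9 to 100.4 in "OHT + DREADD", with medians of 36.9 and 59.5. The groups overlapped narrowly. Lpin1 was also called in the interaction, at 0.75 (SE 0.17, edgeR adjusted p = 0.0970), where 0.0247% of all genes were called higher. It stood at 0.53 (SE 0.13, edgeR adjusted p = 0.410) in "OHT + DREADD" against "SHAM + DREADD". The alternative fits, such as those with sex or the microglia markers, are given for the members alone and not for Lpin1. For stimulation without hypertension, "SHAM + DREADD" against "SHAM", it stood at -0.02 (SE 0.11, p = 0.880). Mbtps2, a protease that releases SREBP from the membrane, stood at 0.40 (SE 0.17) in "OHT + DREADD" against "OHT" and Ch25h, which makes an oxysterol, at 0.67 (SE 0.31), with edgeR adjusted p of 0.628 and 0.653. At an unadjusted p under 0.05, 3 of the list were higher in that comparison, against 4.31% of all genes, and 0 lower, against 3.08%.

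In the other SC comparisons Lpin1 in the interaction was the single call of the list, where at most 0.0518% of all genes were called higher and 0.0324% lower. In "OHT" against "SHAM" 2 were higher and 2 lower at an unadjusted p under 0.05, against 2.77% and 2.18% of all genes. Rxra, a partner of the LXR receptors, stood at 0.26 (SE 0.10), Me1, the malic enzyme, at 0.25 (SE 0.10) and Lpin1 at -0.23 (SE 0.10). In "SHAM + DREADD" against "SHAM" 2 were higher and 3 lower, against 4.62% and 4.92% of all genes. Acly, which supplies acetyl-CoA, stood at -0.22 (SE 0.08), Fads1, a fatty acid desaturase, at -0.19 (SE 0.07) and Me1 at 0.22 (SE 0.10). In "OHT + DREADD" against "SHAM + DREADD" 3 were higher and 2 lower, against 4.46% and 2.67%. After Lpin1 the lowest p were those of Nr1h3, an LXR receptor, at -0.60 (SE 0.27), and Cyp27a1, a sterol hydroxylase, at -0.64 (SE 0.30). In the interaction 3 were higher and 2 lower, against 3.97% and 3.97%, with Mbtps2 at 0.58 (SE 0.21) and Me1 at -0.37 (SE 0.15).

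In the RGC samples 0 of 35 were called in any comparison. Of all genes, at most 0.0758% were called higher and 0.0515% lower in the comparisons of 2 groups. In the interaction these shares were 1.34% and 1.06%. In "OHT" against "SHAM" 0 had an unadjusted p under 0.05, against 2.39% of all genes higher and 3.38% lower. Those of lowest p were Acaca, acetyl-CoA carboxylase, at -0.78 (SE 0.45), Abcg4, a sterol transporter, at -0.40 (SE 0.25) and Aacs, which makes acetoacetyl-CoA, at -0.37 (SE 0.24). In "OHT + DREADD" against "OHT" 2 were lower, against 3.45% of all genes, and 0 higher, against 5.02%. Aacs stood at -0.80 (SE 0.33, edgeR adjusted p = 0.399), Elovl6, a fatty acid elongase, at -0.41 (SE 0.19), and Mbtps2 at -0.67 (SE 0.42). In "OHT + DREADD" against "SHAM + DREADD" 3 were lower, against 3.18% of all genes, and 0 higher, against 4.05%. These were Aacs at -1.11 (SE 0.37, edgeR adjusted p = 0.266), Elovl6 at -0.45 (SE 0.20) and Scd1, a fatty acid desaturase, at -1.56 (SE 0.74). In "SHAM + DREADD" against "SHAM" 0 had that p, against 2.2% of all genes higher and 2.96% lower. Cyp27a1 stood at 1.75 (SE 1.20) and Scd1 at 0.73 (SE 0.62). In the interaction 1 was lower, against 4.60% of all genes, and 0 higher, against 5.46%. Elovl6 stood at -0.52 (SE 0.26), Aacs at -0.75 (SE 0.45) and Scd1 at -1.64 (SE 1.01).

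Relations between members within groups were measured next. After each group's mean was taken out of log2 CPM, the other 27 members were related to Hmgcs1 over the 41 libraries of a tissue, with permutation tests within groups and p-values adjusted over the 27 relations. In the RGC samples 15 were positively and 2 negatively related at an adjusted p under 0.05 for r. Of these, Cyp51 had an adjusted p of 0.0540 for rho. The smallest r among the 15 was 0.386, which 5.62% of all 19233 other genes reached. Among genes of at least 10 CPM, 13.8% of 7063 reached it, and 14 of 22 members. Fdft1 had r = 0.92 and rho = 0.84, Fdps r = 0.85 and rho = 0.73, and Msmo1 r = 0.77 and rho = 0.64 (permutation p of 1e-05, 1e-05 and 1e-05 for r, the smallest the resamples allow, and at most 3e-05 for rho). Without the 2 libraries farthest from the median of Hmgcs1, r was 0.90, 0.79 and 0.74. Insig1 had r = 0.68 and rho = 0.48 (permutation p = 2e-05 and 0.00307), and Srebf2 r = 0.60 and rho = 0.50 (permutation p = 0.00019 and 0.00159). Srebf1, the fatty acid regulator, and Abca1 were negative, at r = -0.41 and -0.40 (permutation p = 0.00736 and 0.0142), with rho of -0.47 and -0.38 (permutation p = 0.003 and 0.0163) and r of -0.32 and -0.36 without the 2 libraries.

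Hmgcs1 in the RGC samples was also related to marker sums. Its r was 0.83 with the neuron markers, 0.76 with the amacrine markers, -0.62 with the astrocyte markers and -0.52 with the rod markers (permutation p = 1e-05, 1e-05, 0.00017 and 0.00126), with rho of 0.78, 0.74, -0.58 and -0.38 (permutation p = 1e-05, 1e-05, 0.00013 and 0.0184), and r without the 2 libraries of 0.76, 0.69, -0.55 and -0.40. These were among 14 marker lists, of which the neuron and amacrine lists share Gad1. The RGC markers had r = 0.36 (permutation p = 0.029, adjusted p = 0.0677) and rho = 0.23 (permutation p = 0.165). The bipolar cell markers had r = -0.44 (permutation p = 0.0051, adjusted p = 0.0143) and rho = -0.26 (permutation p = 0.117). The part of the marker lists in the relations between members was not tested. The median r of members with Hmgcs1 was 0.46, over the 22 with at least 10 CPM, against 0.01 over 7064 genes of that level. Fdft1 and Fdps stood among the 10 genes most like Hmgcs1, with ranks 1 and 6; the others included Npy, Anapc5, Tppp, Rit2, Zcchc18, Itfg1 and Syt1, with r from 0.82 to 0.87.

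**Figure D4:**
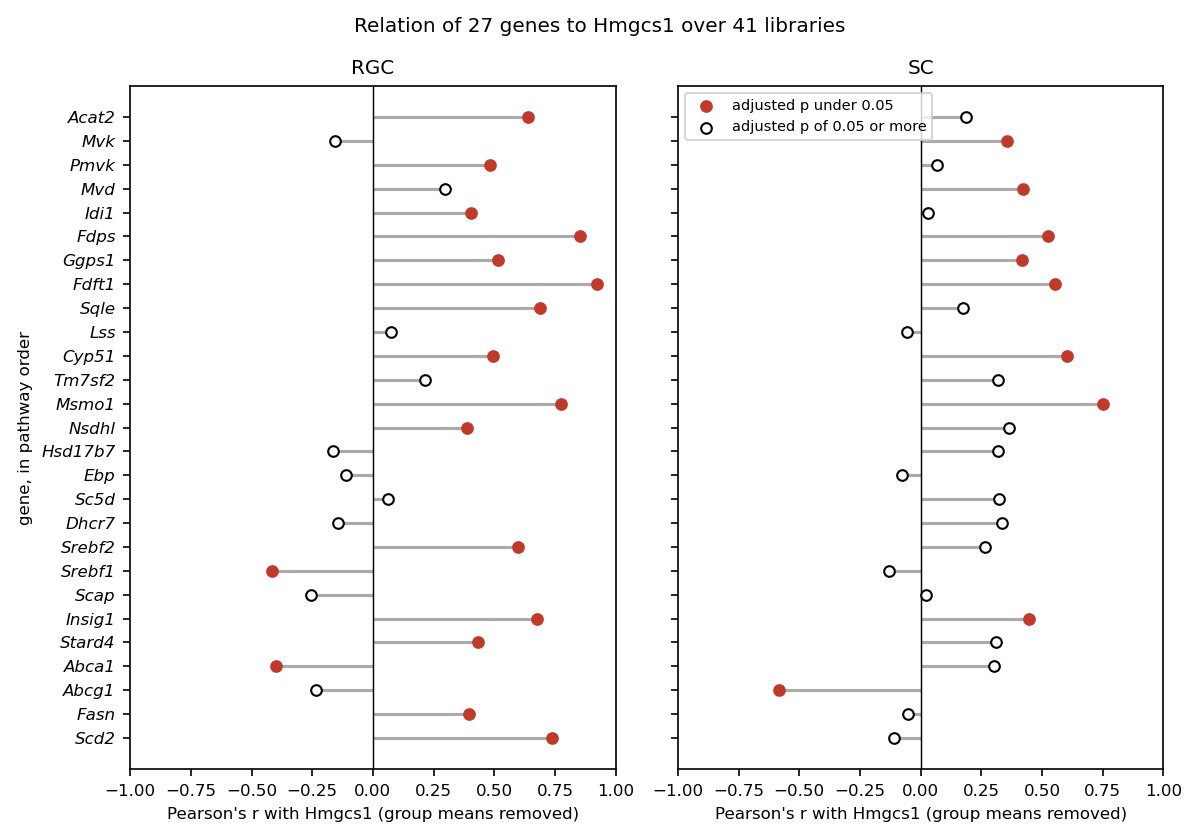
Pearson's r with Hmgcs1 (x axis) for each of the other 27 members (y axis, in pathway order) over 41 libraries of each tissue, after group means of log2 CPM were removed; filled points have an adjusted p under 0.05 and open points do not. The r of Fdft1 was 0.92 in the RGC samples and that of Msmo1 0.75 in the SC samples.

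In the SC 8 members were positively and 1 negatively related to Hmgcs1 at an adjusted p under 0.05 for r. Of the positive ones, 6 were also positive in the RGC samples, where 15 of all 27 members were. Whether 6 exceeds the overlap of unrelated lists was not tested. For rho the adjusted p was under 0.05 for Msmo1, Cyp51, Ggps1, Fdft1 and the negative Abcg1. It was 0.175, 0.167, 0.153 and 0.167 for Mvk, Mvd, Fdps and Insig1. The smallest r among the 8 was 0.354, which 7.85% of all 16168 other genes reached; among genes of at least 10 CPM, 10.7% of 9623 did, and 9 of 26 members. Msmo1 had r = 0.75 and rho = 0.70 (permutation p = 2e-05 and 3e-05), and Cyp51 r = 0.60 and rho = 0.53 (permutation p = 0.00017 and 0.001), with r of 0.63 and 0.51 without the 2 farthest libraries. Abcg1 was negative, at r = -0.58 and rho = -0.59 (permutation p = 7e-05 and 0.0002), and r was -0.48 without these libraries. Among the same marker lists, the endothelium markers were related to Hmgcs1 with r = -0.59 and rho = -0.48 (permutation p = 0.00032 and 0.00274). The adjusted p for r was 0.00448. Markers of oligodendrocyte precursors (r = -0.48), cones (0.44), amacrine cells (-0.43) and Mueller glia (-0.41) had an adjusted p for r of at most 0.0312. The cone markers summed to at most 1.98 CPM in any SC library. The median r of the members was 0.31, over 26 with at least 10 CPM, against 0.01 over 9624 genes. Msmo1 ranked 3 among the genes most like Hmgcs1, after Snrpb2 and Dnajc8 (r = 0.78 and 0.77). Over all 378 pairs of members the median r was 0.12 in the RGC samples and 0.10 in the SC. For pairs of members of at least 10 CPM it was 0.20 in the RGC samples and 0.10 in the SC, against 0.000413 and -0.0044 over all pairs of genes of that level.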

How the data were processed

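The raw gene counts were deposited by the authors: reads (single-end; Smart-Seq2 full-length libraries for RGCs, QuantSeq 3′ tags for SC) were checked with FastQC 0.11.7, trimmed with fastq-mcf, aligned to mm10 with HISAT2, processed with SAMtools 1.5 with multi-mapped reads discarded, and counted with HTSeq 2.7.14. Annotation and strand are not given in the sources used here. Discarding multi-mapped reads lowers genes with close copies. Symbols came from GENCODE M21 (42548 of 43629 identifiers).

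Groups came from the labels. Genes were tested, where 2 or more samples held over 5 reads, with edgeR 4.0.16 (R 4.3.3, quasi-likelihood, TMM) on the 2 groups compared, with Benjamini-Hochberg adjustment over all genes; calls followed the study's thresholds (adjusted p 0.1, log2 difference 1.3 for RGC and 0.5 for SC). SE is the log2 difference over the root of F. CPM used TMM-normalised library sizes over the 41 libraries of a tissue, so that a library sums to 1000659 (RGC) and 995821 (SC) at the median. DESeq2 1.42.0 and limma 3.58.1 were alternatives. Correlations used log2 CPM with a prior count of 2 and 100000 resamples. Figures and tables used Python 3.11.15.

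The fit was tested on simulated data for "OHT" against "SHAM": of 200 genes changed by 1.5 on the log2 scale, 157 were recovered in RGC (16089 genes) and 200 in SC (15268), with 70 and 7 false calls, of which 1 and 1 had a mean of at least 10 CPM. The changed genes were drawn from well-expressed genes only, above the level of low RGC members such as Idi1 and Mvk. Recovery was not simulated for such members or for smaller differences. No 2 libraries were duplicates (chi-square per degree of freedom at least 13.7 in RGC and 2.11 in SC). The named genes were members with an unadjusted p under 0.05, at most 6 per comparison, and Hmgcs1, Sqle, Srebf2, Insig1 and Abca1 always, with the 3 other pathway genes of lowest p, of which 1 result is not reported here. The members and lists were chosen with earlier results of these data known.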

Additional observations from a re-analysis of the deposited data

Results flagged for a closer look

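Of 168 sets of 10 libraries (a member in 1 group of 1 tissue), 13 held a library whose gap to its nearest neighbour exceeded Dixon's 95% critical value for its group. The "OHT" groups, with 11 libraries, were not put to this test. The rate of 1 in 20 holds for normal and independent values only. CPM was not logged for this test and the sets share libraries, so 13 of 168 cannot be read against that rate.

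In the RGC samples the high libraries were "SHAM" replicate 6 for Idi1 (17.3 CPM, others at most 9.34), "SHAM + DREADD" replicate 1 for Sqle (164, others at most 118), "OHT + DREADD" replicate 9 for Srebf1 (70.5, others at most 29.1) and "SHAM" replicate 5 for Abcg1 (515, others at most 343). Insig1 was high in "SHAM + DREADD" replicate 3 (328, others at most 121) and in "OHT + DREADD" replicate 10 (152, others at most 85.3). Fasn, fatty acid synthase, was high in the last of these libraries as well (94.3, others at most 56.1).

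In the SC the high libraries were "SHAM + DREADD" replicate 9 for Pmvk (61.1 CPM, others at most 46.6), "OHT + DREADD" replicate 10 for Mvd (36.8, others at most 24.7), "SHAM + DREADD" replicate 1 for Tm7sf2 (13.6, others at most 8.47), "OHT + DREADD" replicate 9 for Insig1 (54.5, others at most 35.6) and "SHAM" replicate 10 for Abcg1 (47.1, others at most 35.7). Msmo1 was low in "SHAM" replicate 6 (117, others at least 133).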

How the results depend on the processing

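The count of members called was 0 in every comparison and under every alternative run, except for 1 (Acat2) in RGC "OHT + DREADD" against "OHT" with sex as a covariate. The members' median log2 difference in SC "SHAM + DREADD" against "SHAM" was 0.06 and went to -0.0558 with the microglia markers as a covariate; the cause was not tested. Leaving out 1 library at a time, RGC medians ran from -0.18 to -0.08 ("OHT" against "SHAM"), from -0.30 to -0.21 ("OHT + DREADD" against "OHT"), from -0.49 to -0.36 ("OHT + DREADD" against "SHAM + DREADD") and from -0.11 to 0.06 ("SHAM + DREADD" against "SHAM"). In the same order SC medians ran from -0.04 to 0.0066, from -0.03 to 0.02, from -0.07 to 0.0043 and from 0.03 to 0.07.

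Counts of members at an unadjusted p under 0.05 are given with the share of all genes in the same fit. In RGC "OHT + DREADD" against "SHAM + DREADD" 6 were lower (3.18% of all genes), 11 with the replicate block (2.87%), 1 with sex (4.01%) and 0 with the rod markers (3.39%) as a covariate, and from 3 to 9 leaving out 1 library (2.7% to 3.77%). In RGC "OHT + DREADD" against "OHT" 3 were lower (3.45%), 6 with the replicate block (2.85%) and 5 with sex (5.57%), and from 2 to 4 leaving out 1 library (3.05% to 4.14%). In RGC "OHT" against "SHAM" 0 were lower (3.38%), 2 with limma-voom (2.83%) and 2 with the rod markers (3.16%), and at most 2 leaving out 1 library (2.79% to 3.70%). In RGC "SHAM + DREADD" against "SHAM" 0 were lower (2.96%), and 3 with the rod markers (3.22%). In SC "OHT + DREADD" against "OHT" 1 was higher (4.31%), and 3 with sex (7.54%). In SC "OHT" against "SHAM" 0 were higher (2.77%), and 2 with the replicate block (3.50%). In the SC interaction 1 was lower (3.97%), and 3 with the replicate block (5.02%). Leaving out 1 SC library moved no count by more than 2.

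Same-numbered libraries of different groups were not paired by the labels, and 1 of 60 (RGC) and 12 of 60 (SC) such pairs had a correlation over 0.1; a library's best match in another group had its own number in 12 of 120 and 19 of 120 searches. The alternatives with the rod, amacrine and microglia markers, and without rod-rich libraries or SC replicates 9 and 10, were chosen after seeing the data. Depth limits the low members: Idi1 in the RGC samples had a median of 20 reads per library (0 to 66).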
